A study of Mus musculus with 15 samples.

Results

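The comparison described here set cultured mouse muscle satellite cells given AMP against the same kind of cells given the solvent DMSO. Its members were 3 libraries with 0.25 mM AMP and 3 DMSO libraries of the second batch, 6 of the 15 libraries of the series, chosen by their labels, and all 13063 named genes of the batch's count table of 13106 lines. The cells came from hindlimb muscle of the strain C57BL/6J and grew in F10 medium with 10% horse serum; treatment lasted 24 hours. The batch's remaining group, 3 libraries with 0.1 mM adenosine, was fitted together with them and is used below only to show where AMP differed from it. No genetic change was named for any group, and whether replicate libraries stand for different animals, different dishes or splits of one is not in the labels. The p-values therefore measure only how far these libraries vary, and part of that variation may be technical.

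Satellite cells are the stem cells of skeletal muscle: they rest beside the fibre, enter the cell cycle after injury, multiply as myoblasts and fuse into new fibre. AMP outside a cell is split by surface enzymes to adenosine, which binds P1 receptors or enters through nucleoside transporters and is then phosphorylated by adenosine kinase or deaminated. Inside the cell, AMP is the signal of low energy that the AMP-activated kinase, AMPK, reads.

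Library totals lay between 11107450 and 14201933 counts over the 6 libraries. Levels are CPM, counts scaled per 1000000 of a library's total times its TMM factor, which is also the scale of the fold changes, and do not correct for gene length. The labelled cell type could be checked against 12 markers of satellite cells and myoblasts, all of which were counted, Pax7 and Myod1 among them. The summed level of those 12 was 7011, 7688 and 7493 CPM in the DMSO libraries and 4470, 4852 and 3804 CPM in the AMP libraries. Of the 12, 7 fell and 2 rose, with Pax7 among those that rose. Of 16 leukocyte markers 2 were analysed here, Cd68 and Csf1r, and their summed level was 1.92 to 3.71 CPM with DMSO and 11.9 to 14.8 CPM with AMP. Endothelial markers (2 of 10) summed to 2.32 to 6.04 CPM with DMSO and 8.9 to 11.4 CPM with AMP. Smooth muscle and pericyte markers (4 of 8, median -1.84) summed to 1510 to 1858 CPM with DMSO and 339 to 508 CPM with AMP, most of it desmin, which myoblasts also express, and Notch3 and Cspg4 of this list fell as well. Schwann cell markers (4 of 7) summed to 120 to 149 CPM and 36.9 to 68.8 CPM, most of it Pmp22, while Ngfr and Mbp rose. The sums of fibro-adipogenic progenitor and adult myofibre markers overlapped between the groups, though single members moved in both directions. Of 5 analysed myofibre markers 3 fell and 1 rose, with log2 fold changes from -2.50 to 2.34. Taken singly, all 5 did not overlap between the groups. Of 4 analysed progenitor markers 1 rose and 1 fell. The sums of tendon cell markers were 15.9 to 32 CPM with DMSO and 33.3 to 48.6 CPM with AMP. The part of these markers in the results below was not tested. In bulk RNA, fewer cells of a type and less RNA per cell cannot be told apart.

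The AMP libraries separated from the DMSO libraries. The first principal component of log2 CPM over all 9 libraries of the batch held 84.2% of the variance. It placed the DMSO libraries between -78.3 and -69.7 and the AMP libraries between 19.7 and 38.3. The adenosine libraries lay between 34.7 and 50.1, so AMP and adenosine overlapped on it. Of 13063 genes tested, 4405 were higher and 4159 lower with AMP (two-sided quasi-likelihood test in edgeR, adjusted p under 0.05 after Benjamini and Hochberg), or 65.6% of all, 33.7% higher and 31.8% lower. Past 2-fold, 2110 genes rose and 1507 fell. Past 8-fold, 326 rose and 152 fell. Genes of low total over the 9 libraries are missing from the data, and most of the 9 were treated. That limit keeps genes low with DMSO more readily than genes low with AMP and adenosine. Its part in the excess of large rises was not tested. The 2 groups did not overlap in 70.5% of genes. Counts of called list members below are to be read against the 33.7% and 31.8%. The split depends on scaling. With library totals in place of TMM the calls were 6037 higher and 2605 lower of 13063. The median of all genes moved from 0.01 to 0.28 on the log2 scale, so directions below are relative to the typical gene. List counts given with library totals are to be read against those 6037 and 2605, not against the 33.7% and 31.8%.

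**Figure D1:**
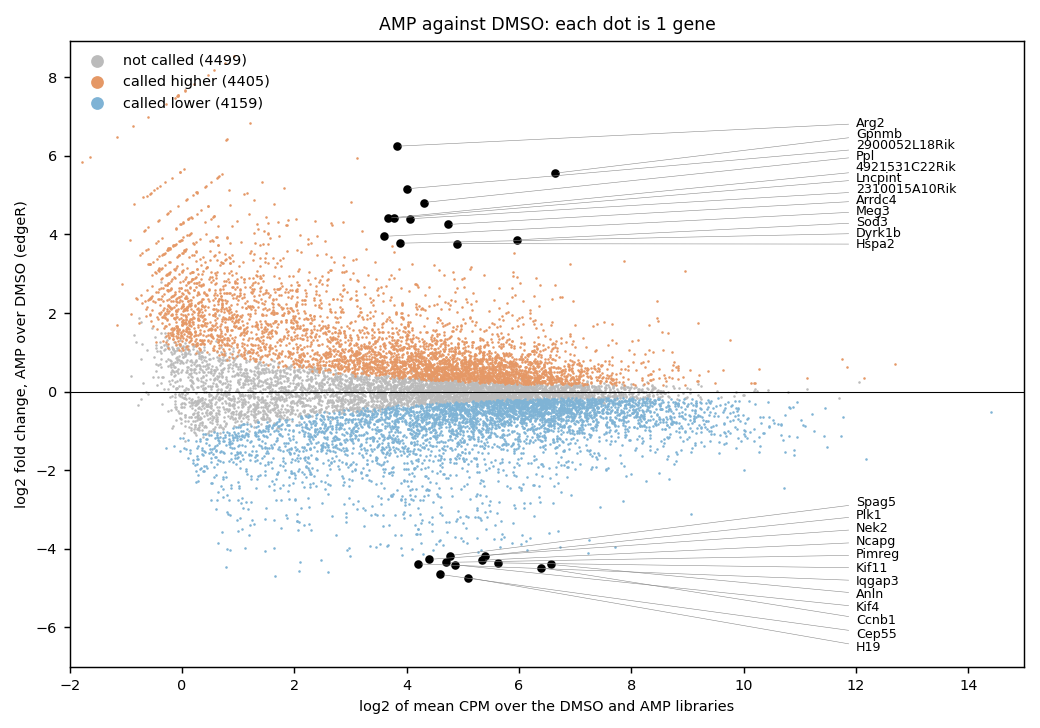
Log2 fold change of AMP over DMSO against log2 of the mean CPM for the 13063 genes, each dot a gene, orange for the 4405 called higher, blue for the 4159 called lower and grey for the rest. The named black dots are the 12 highest and 12 lowest among called genes of at least 10 CPM whose groups do not overlap, from Arg2 at 6.25 to H19 at -4.74.

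Of the 36 pathway and programme lists, those of cell division had the lowest medians. All 42 mitosis genes and all 46 genes of DNA replication and S phase fell, against 31.8% of all genes, with a median log2 fold change of -3.79 for mitosis and -1.55 for replication, where the median over all genes was 0.01. The summed mitosis mRNA was 3416, 5493 and 4138 CPM in the DMSO libraries and 238, 553 and 322 CPM in the AMP libraries. Library 2 was the highest in each group, and no AMP library came near the lowest DMSO library.

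Ccnb1, cyclin B1, which drives entry into mitosis, stood at 123, 215 and 144 CPM with DMSO and 2.58, 12.5 and 6.3 CPM with AMP. It fell by 4.48 on the log2 scale (SE 0.38, adjusted p = 8.1e-08), a 22.3-fold loss. Plk1, a kinase of the spindle poles and of mitotic entry, went from 55.1, 110.0 and 73.5 CPM to 1.78, 7.46 and 3.84 CPM (log2 fold change -4.18, SE 0.37). Mki67, the proliferation marker Ki-67, fell from 97.5, 158 and 111 CPM to 3.2, 14 and 7.75 CPM, 14.6-fold. Cep55, which recruits the machinery that cuts daughter cells apart, was the second lowest named gene at -4.65 (SE 0.40, adjusted p = 8.9e-08). The other falls of the named set were Kif4 and Kif11, motor proteins of the spindle, the cytokinesis scaffold Anln, the condensin subunit Ncapg, the kinase Nek2, the spindle protein Spag5, and Iqgap3 and Pimreg, with log2 fold changes from -4.41 to -4.17.

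The promoters of the listed mitosis genes share letters, a trait of the list that does not depend on what AMP did. Mitotic promoters of vertebrates typically hold a CCAAT box and a cell cycle homology region, TTTGAA or TTTAAA, near the start. RefSeq windows (GRCm38.p6, 250 bases before to 50 after a start, both strands searched; motifs may overlap) were available for 35 of the 42 mitosis genes, as 37 windows. A CCAAT box together with TTTGAA or TTTAAA was in 25 of these windows (67.6%), against 7.46% of the 12025 windows of all genes tested. The share was 11.8% among windows of genes that fell more than 2-fold and 6.44% among those that rose more than 2-fold. The 4 mitosis genes with the lowest fold change that hold both in the stretch from 120 bases before to 30 after the start are shown 5' to 3', with the motifs in capitals (ATTGG and TTCAAA are the same motifs on the opposite strand): Ccnb1 at chr13:100786457-100786606 (minus strand), Kif4 at chrX:100625945-100626094 (plus), Kif11 at chr19:37376262-37376411 (plus) and Plk1 at chr7:122159315-122159464 (plus).
Ccnb1: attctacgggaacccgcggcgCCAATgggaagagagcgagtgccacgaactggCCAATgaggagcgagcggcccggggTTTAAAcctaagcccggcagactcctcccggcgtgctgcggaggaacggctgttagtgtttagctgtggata
Kif4: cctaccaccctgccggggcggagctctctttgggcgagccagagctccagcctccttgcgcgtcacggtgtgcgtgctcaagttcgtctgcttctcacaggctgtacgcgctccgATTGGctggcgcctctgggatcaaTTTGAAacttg
Kif11: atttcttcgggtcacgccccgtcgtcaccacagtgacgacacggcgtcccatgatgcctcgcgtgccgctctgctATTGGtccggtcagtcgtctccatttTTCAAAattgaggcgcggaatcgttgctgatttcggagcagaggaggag
Plk1: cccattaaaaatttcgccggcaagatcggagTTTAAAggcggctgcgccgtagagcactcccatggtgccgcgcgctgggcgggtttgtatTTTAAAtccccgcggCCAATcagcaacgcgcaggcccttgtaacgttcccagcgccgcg

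Replication genes lost less than mitosis genes. Ccne1, cyclin E1, which carries cells from G1 into S phase, fell from 87.8, 99.2 and 98.1 CPM to 3.02, 11.2 and 6.68 CPM (log2 fold change -3.76, SE 0.32, adjusted p = 8.1e-08). Tk1, thymidine kinase 1, fell 10.4-fold, from 66.3, 102 and 91.1 CPM to 6.4, 10.5 and 7.83 CPM. Mcm10, a loading factor of the replication fork, fell by 3.26 on the log2 scale and Clspn, a checkpoint adaptor at the fork, by 3.49. An E2F letter pattern (TTTGGCGC, TTTCCCGC or TTTCGCGC, which can overlap each other) was in 15 of 42 windows of replication genes (35.7%), against 3.56% of all windows. Under the same limits on windows and chromosome, the 3 with the lowest fold change that hold one in the shown stretch were Clspn (chr4:126556860-126557009, plus strand), Pole2 (chr12:69228161-69228310, minus), a subunit of DNA polymerase epsilon, and Mcm6 (chr1:128359676-128359825, minus), a subunit of the replicative helicase.
Clspn: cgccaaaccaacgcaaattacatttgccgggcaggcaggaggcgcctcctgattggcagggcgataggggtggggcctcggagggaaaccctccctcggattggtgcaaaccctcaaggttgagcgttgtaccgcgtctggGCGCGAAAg
Pole2: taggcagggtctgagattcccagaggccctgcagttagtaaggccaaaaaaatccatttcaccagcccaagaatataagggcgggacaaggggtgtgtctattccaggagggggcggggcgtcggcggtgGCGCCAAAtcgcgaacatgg
Mcm6: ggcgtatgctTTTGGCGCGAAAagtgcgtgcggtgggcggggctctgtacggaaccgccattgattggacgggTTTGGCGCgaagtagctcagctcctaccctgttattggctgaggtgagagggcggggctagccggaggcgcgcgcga

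**Figure D2:**
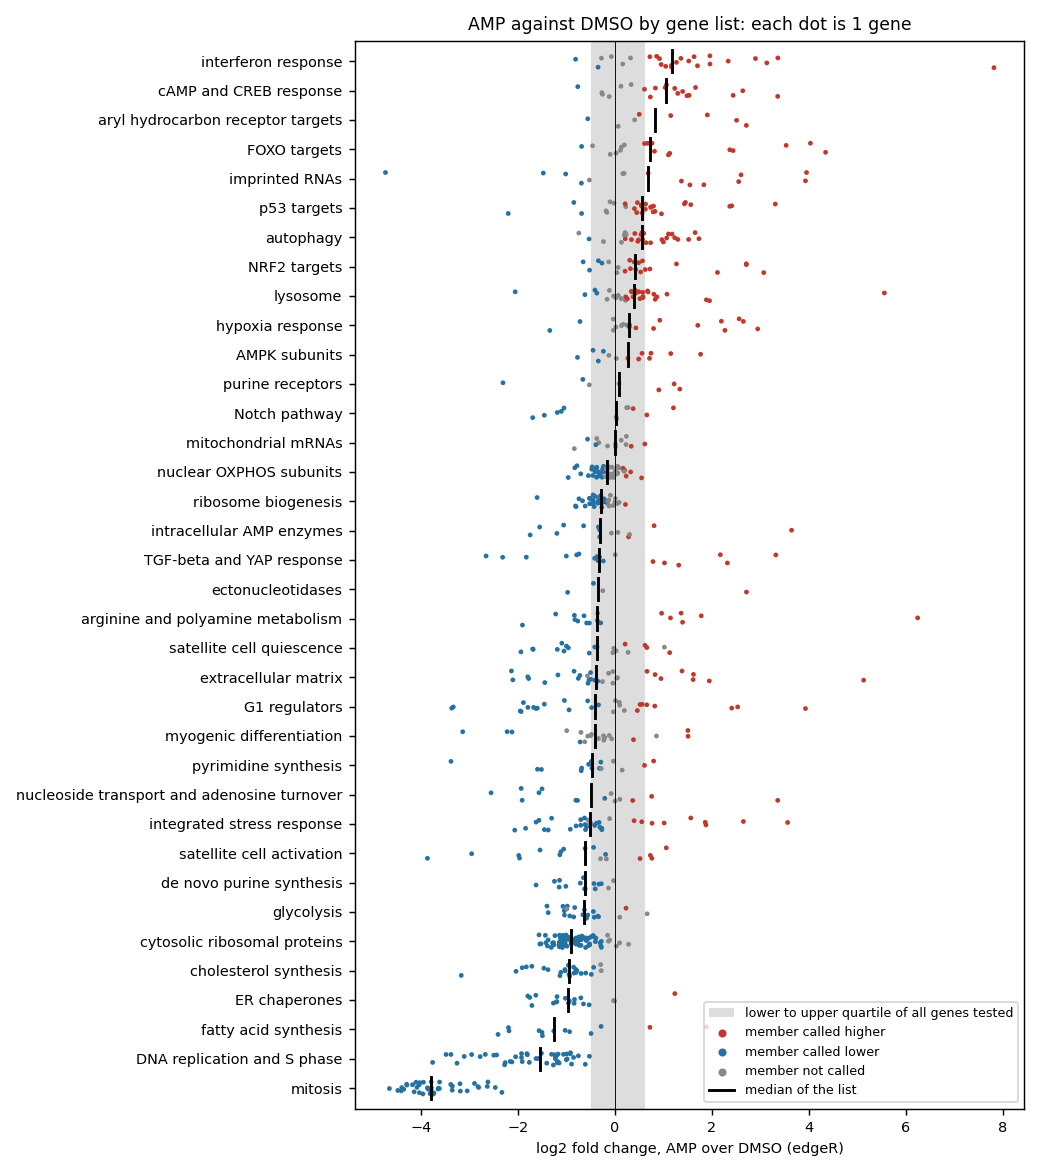
Log2 fold change of AMP over DMSO for every analysed member of 36 gene lists, ordered by the list's median (black bar), with red for called higher, blue for called lower and grey for not called; the grey band holds the genes between the lower and upper quartile of all tested. Mitosis (median -3.79) and replication (-1.55) lie lowest, and the interferon list (1.17) and the cAMP list (1.05) highest.

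Among 28 regulators of G1, 8 rose, 15 fell and 5 were not called, with a median of -0.41. Cdkn1a, the inhibitor p21, was at 409, 459.5 and 407 CPM with DMSO and 638, 602 and 642 CPM with AMP, a 1.47-fold rise (SE 0.07 on the log2 scale, adjusted p = 4.7e-06) with no overlap. Cdkn1c, the inhibitor p57, was at 0.394, 0.101 and 0.0915 CPM with DMSO, and rose to 2.67, 3.56 and 3.69 CPM. Btg2, an antiproliferative gene that p53 activates, rose from 35.3, 32.7 and 35.0 CPM to 184, 167 and 198 CPM, 5.32-fold. Mxd4, an antagonist of MYC, rose 5.79-fold. Ccnd1, cyclin D1, which opens G1, also rose, from 289, 267 and 270.2 CPM to 383, 449 and 352 CPM (log2 fold change 0.52, SE 0.11, adjusted p = 0.00075). The E2F repressors E2f7 and E2f8, themselves S phase genes, fell by 3.34 and 3.37.

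Of 29 p53 targets, 21 rose and 3 fell (median 0.56), against 33.7% and 31.8% of all genes. Besides Btg2, Trp53inp1, a stress-induced p53 partner, rose 5.17-fold, from 34.2, 32.5 and 26.8 CPM to 157, 151 and 176 CPM. Perp, a p53 target of low level here, was at 0.316, 0 and 0.0915 CPM with DMSO and 2.22, 0.763 and 1.69 CPM with AMP (adjusted p = 0.0017). Trp53i11 ran the other way, at -2.20 (SE 0.28).

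Genes that make or handle AMP and adenosine were followed one by one, since AMP was the agent. Of 16 gene symbols listed for surface enzymes that act on nucleotides, 4 were analysed here. Nt5e, which makes adenosine from AMP at the cell surface, was not analysed here. Enpp1, a phosphodiesterase that makes AMP from ATP, rose 6.56-fold, from 2.13, 1.31 and 1.19 CPM to 10.4, 10.8 and 9.83 CPM (adjusted p = 5.5e-08). Alpl, an alkaline phosphatase that can split AMP, was at 3.79, 6.35 and 4.76 CPM and fell to 2.22, 1.95 and 3.3 CPM (adjusted p = 0.023); leaving out DMSO library 2, AMP library 1 or AMP library 2, or scaling to library totals, ended that call. Enpp4 fell by 0.44 (SE 0.11; not called with library totals), and Entpd2 was not called, at -0.25 (SE 0.33).

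Transporters and enzymes that take up or use adenosine were mostly lower. Adk, adenosine kinase, which turns adenosine into AMP, fell 3.77-fold, from 132, 131 and 122 CPM to 33.5, 36.9 and 31.5 CPM (log2 fold change -1.92, SE 0.10, adjusted p = 4.8e-10). The equilibrative transporters Slc29a1 and Slc29a2 fell 2.84-fold and 2.96-fold; Slc29a1 went from 183, 206 and 212 CPM to 72.6, 77.6 and 61.7 CPM. Ahcy, which yields adenosine from S-adenosylhomocysteine, fell 3.83-fold, and Dck, deoxycytidine kinase, fell 5.89-fold. Ada, adenosine deaminase, fell by 0.77 (SE 0.20). Xdh, xanthine oxidoreductase, the last step of purine breakdown to uric acid, rose 10.3-fold from 1.34, 1.51 and 1.56 CPM to 11.6, 18.6 and 15.1 CPM. Of the 14 genes of transport and turnover, 3 rose, 8 fell and 3 were not called (median -0.49; 5 rose and 6 fell with library totals); Aprt, which recycles adenine, was one of those not called, at 0.10 (SE 0.09).

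Inside the cell, 3 of 14 AMP enzymes rose, 8 fell and 3 were not called (median -0.32). Ampd3, an AMP deaminase, rose 1.75-fold, from 129, 99.1 and 108 CPM to 206, 199.6 and 184 CPM. Ampd1, the deaminase of muscle fibre, was barely counted with DMSO, at 0.158, 0.202 and 0 CPM, and stood at 1.07, 1.1 and 2.61 CPM with AMP (adjusted p = 0.00025). Nt5c2, a cytosolic 5' nucleotidase, fell 2.29-fold and Ak3, an adenylate kinase of mitochondria, fell 2.94-fold. With library totals this list split 5 to 5.

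The only adenosine receptor gene analysed here was Adora2b, the low-affinity A2B receptor. It was at 9.7, 15.1 and 12.1 CPM with DMSO and 2.22, 4.24 and 0.998 CPM with AMP, a fall of 2.31 (SE 0.40, adjusted p = 0.00011), 4.96-fold. ATP receptor channels rose: P2rx4, the most abundant, went from 14.9, 14.5 and 16.7 CPM to 38.4, 32.4 and 36.9 CPM, and P2rx7 rose 2.53-fold. P2rx5 rose 0.91 on the log2 scale (SE 0.32), a call that was lost without DMSO library 3, AMP library 1 or AMP library 3. The UTP and ATP receptor P2ry2 fell by 0.66 (SE 0.20), while P2ry1 and P2ry14 were not called.

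De novo purine synthesis builds AMP and GMP from ribose phosphate. Of its 15 analysed genes 13 fell and 2 were not called (median -0.63; with library totals 1 rose and 9 fell). Paics, which joins 2 steps of the pathway in one protein, fell 2.22-fold, from 644, 645 and 649.6 CPM to 274, 315 and 284 CPM. Mthfd2, which supplies formyl groups from mitochondria, fell 3.09-fold from 229, 243 and 244 CPM to 83.6, 81.9 and 66.2 CPM. Pfas and Prps2 fell by 1.14 and 1.25. In pyrimidine synthesis 11 of 16 fell and 2 rose (7 and 3 with library totals).

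The 13 analysed genes of AMPK and the proteins around it did not move as one: 7 rose, 4 fell and 2 were not called (median 0.27). The largest rises were of Fnip1 and Flcn, which form the folliculin complex that acts between AMPK and mTORC1. Fnip1 went from 9.78, 11.2 and 10.9 CPM to 35.6, 34.1 and 38.5 CPM, 3.4-fold, and Flcn rose 2.22-fold. Stk11, the kinase LKB1 that activates AMPK, rose 0.74 (SE 0.15). Prkag2, a gamma subunit that binds AMP, fell by 0.77 (SE 0.20).

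Targets of cAMP signalling, to which A2 receptors couple, rose in 14 of 20 cases, with 1 lower and a median of 1.05, against 33.7% higher and 31.8% lower of all genes. Nr4a2, an orphan nuclear receptor induced by CREB, rose 6.23-fold, from 2.52, 4.03 and 2.84 CPM to 20.5, 15.1 and 22.3 CPM. Irs2 rose 5.42-fold and Per1 3.17-fold. Nr4a3 was at 0, 0.202 and 0.549 CPM with DMSO and 2.58, 3.13 and 2.0 CPM with AMP.

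Among the 22 NRF2 targets, 15 rose and 4 fell, with a median of 0.41, against 33.7% and 31.8% of all genes. Gstm1, a glutathione transferase, rose 8.4-fold from 105, 102 and 109.8 CPM to 896, 828 and 933 CPM; its near-identical relatives make its count uncertain. Nqo1, a quinone reductase, rose from 19.4, 26.7 and 19.9 CPM to 148, 143 and 140.0 CPM, 6.55-fold (adjusted p = 1.9e-11). Outside that list, Sod3, the extracellular superoxide dismutase and one of the 12 highest fold changes, rose 14.6-fold from 7.73, 5.85 and 10.2 CPM to 125, 112 and 112 CPM.

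The integrated stress response list split: 9 rose and 21 fell of 34. Atf3 and Ddit4, early stress genes, rose 11.8-fold and 6.28-fold, while Phgdh, the entry enzyme of serine synthesis and a target of ATF4, fell 4.19-fold, from 535, 624 and 583 CPM to 142, 158 and 116 CPM. Chaperones of the endoplasmic reticulum fell in 16 of 19 cases (median -0.96). Hsp90b1, the chaperone GRP94, fell 3.1-fold from 594, 643 and 580.0 CPM to 188, 215 and 182 CPM.

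Protein and lipid synthesis genes moved down together. Of 82 cytosolic ribosomal protein genes 76 fell and 6 were not called (median -0.90; with library totals 68 fell and 3 rose), and Rps2 went from 2455, 2533 and 2650 CPM to 958, 860.1 and 790.0 CPM. Processed pseudogenes can share reads with ribosomal protein genes, so single values are less certain than the count. Npm1, a nucleolar chaperone of ribosome assembly, fell 3.05-fold. Of 41 biogenesis factors 29 fell and 1 rose, but with library totals only 11 fell and 6 rose.

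Cholesterol synthesis genes fell in 23 of 25 cases and fatty acid genes in 11 of 13, with medians of -0.95 and -1.26. Elovl6, an elongase of fatty acids, fell 5.33-fold, from 143, 134 and 135 CPM to 24.6, 29.7 and 23 CPM. In glycolysis 18 of 22 fell, Ldha among them, from 1920, 1696 and 1682 CPM to 869, 884 and 814 CPM. Nuclear-coded subunits of the respiratory chain had 5 higher and 25 lower of 52. With library totals they had 18 higher and 6 lower, a scaling under which rises outnumbered falls over all genes too (6037 against 2605). Without DMSO library 2, DMSO library 3 or AMP library 2 the counts were 3 and 22. The mRNAs of the mitochondrial genome had 2 higher and 2 lower of 13 (6 and 1 with library totals).

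**Figure D3:**
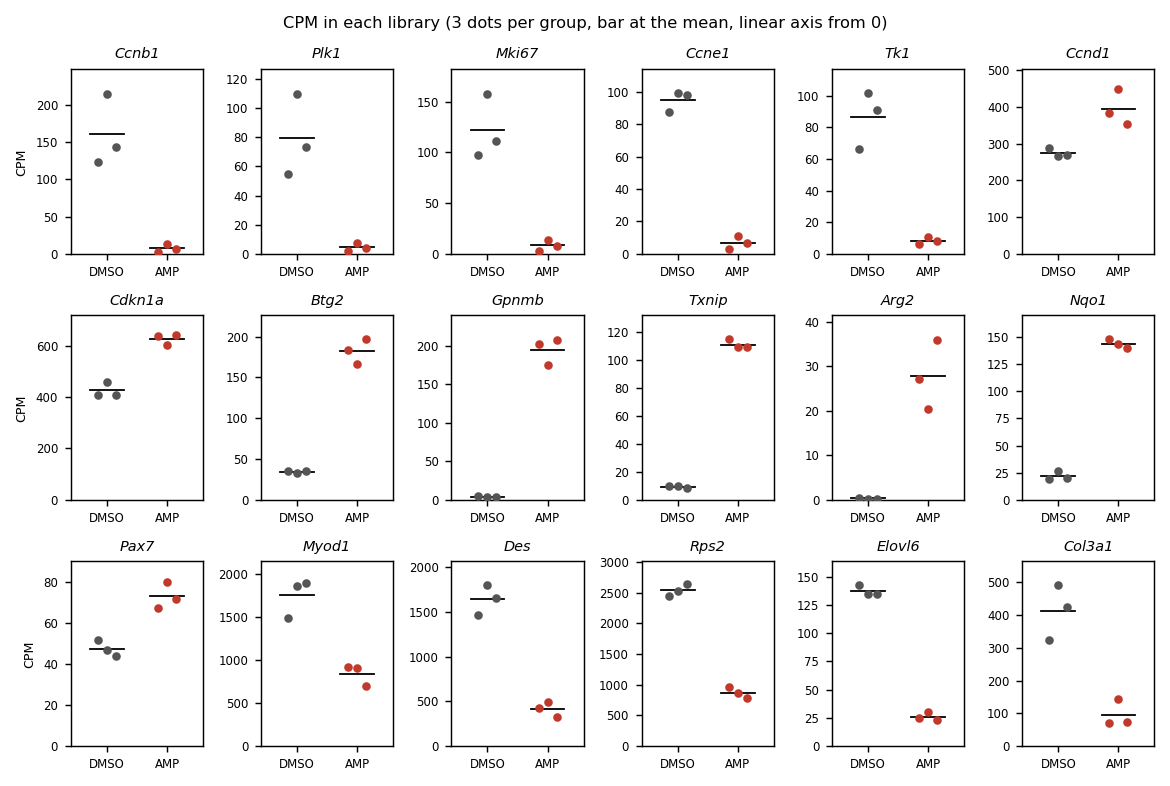
CPM in each of the 3 DMSO (grey) and 3 AMP (red) libraries for 18 genes, with a bar at the mean and every axis linear from 0. The groups do not overlap in any of the 18 panels, with mitosis and replication genes near 0 with AMP and Gpnmb, Txnip and Arg2 near 0 or far lower with DMSO.

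The largest rises named by the rule were of another kind. Arg2, the mitochondrial arginase, went from 0.473, 0.302 and 0.275 CPM to 27.2, 20.5 and 35.9 CPM (log2 fold change 6.25, SE 0.35, adjusted p = 9.1e-10), 76-fold. Gpnmb, a lysosomal and surface glycoprotein, rose 47.2-fold, from 5.13, 3.43 and 3.66 CPM to 202, 176 and 208 CPM (SE 0.13). Txnip and Arrdc4 belong to the same alpha-arrestin family, and both limit glucose uptake. Txnip rose 11.6-fold from 10.1, 10.2 and 8.51 CPM to 115, 109 and 109 CPM, and Arrdc4 19.1-fold. Of the 17 genes of arginine and polyamine metabolism, Arg2 among them, 6 rose and 10 fell (6 and 6 with library totals). Ppl, periplakin, rose 28.1-fold and the long non-coding RNA Lncpint 21.3-fold. Dyrk1b, a kinase linked to quiescence, and Hspa2, a chaperone of the HSP70 family, rose by 3.78 and 3.77; the unnamed transcripts 2900052L18Rik, 4921531C22Rik and 2310015A10Rik rose by 5.16, 4.41 and 4.40.

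Lysosome genes rose in 21 of 32 cases and fell in 4 (median 0.40), and autophagy genes rose in 21 of 29 and fell in 1 (median 0.56), against 33.7% higher and 31.8% lower of all genes. Map1lc3b, the membrane-bound marker LC3B, rose 3.33-fold from 98.5, 89.5 and 92.2 CPM to 315, 277 and 341 CPM. Neu1, a sialidase, rose 3.87-fold, while Glb1, the beta-galactosidase, fell 4.17-fold. The palindrome TCACGTGA, the core of the CLEAR element that TFEB binds, was in 6 of 26 windows of lysosome genes (23.1%), against 1.95% of all windows. Mcoln1 (chr8:3500399-3500548, plus strand), Atp6v0d1 (chr8:105566035-105566184, minus) and Ctsd (chr7:142387798-142387947, minus) rose and hold it in the shown stretch. The letters of other factors were searched in the same way: TGACNNNGC, the core of the element NRF2 binds, was in 7 of 23 windows of NRF2 targets (30.4%) against 14.5% of all windows, but its share was also 28.6% in the cAMP list and 26.9% in the lysosome list. TGACGTCA, which CREB binds, was in only 2 of 21 windows of the cAMP list (9.52%) against 3.16% of all windows, and in 8.33% for ribosomal proteins and 8.11% for mitosis. The motifs and the genes whose windows are shown were chosen after fold changes were seen.
Mcoln1: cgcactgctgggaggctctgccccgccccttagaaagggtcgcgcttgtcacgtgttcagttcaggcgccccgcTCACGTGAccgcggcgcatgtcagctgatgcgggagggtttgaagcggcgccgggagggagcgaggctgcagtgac
Atp6v0d1: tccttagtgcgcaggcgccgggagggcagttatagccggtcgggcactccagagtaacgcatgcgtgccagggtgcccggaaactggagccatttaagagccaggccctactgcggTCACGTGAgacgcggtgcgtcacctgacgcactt
Ctsd: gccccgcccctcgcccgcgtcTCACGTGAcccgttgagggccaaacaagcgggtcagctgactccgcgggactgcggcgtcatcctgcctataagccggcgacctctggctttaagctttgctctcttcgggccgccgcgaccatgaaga

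FOXO targets rose in 11 of 18 cases with 1 lower, including Fbxo32, the atrophy ligase atrogin-1, from 0.631, 0.605 and 0.183 CPM to 8.98, 8.05 and 12.6 CPM. Of 19 hypoxia targets 11 rose and 2 fell; Adm, adrenomedullin, rose 7.71-fold. Interferon response genes rose in 19 of 25 cases and fell in 2 (median 1.17). Isg15 had no count in any DMSO library and 33, 26 and 24 counts in the AMP libraries, at least 8.58-fold higher against a floor of 3 counts per library; the list's median was 1.17 with that bound too. Gbp2, a guanylate-binding protein, rose 8.78-fold.

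In the imprinted list 8 rose, 4 fell and 3 were not called. H19, a long non-coding RNA expressed from the maternal copy in growing muscle, had the lowest fold change of the named set, with 49.5, 81.6 and 66.3 CPM against 1.33, 2.63 and 3.3 CPM (-4.74, SE 0.28, adjusted p = 1.9e-09), 26.7-fold lower. Meg3, the maternal non-coding RNA of another region, rose 15.5-fold, from 1.26, 1.92 and 1.28 CPM to 25.1, 15.3 and 28.1 CPM.

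Among 21 genes high in resting satellite cells, 4 rose, 11 fell and 6 were not called (median -0.37; 8 rose and 9 fell with library totals, and 5 and 5 among the 16 of at least 10 CPM), and of 17 activation genes 4 rose and 11 fell (median -0.62). Pax7, the transcription factor that defines satellite cells, rose from 51.7, 46.8 and 44.1 CPM to 67.3, 80.2 and 71.9 CPM (log2 fold change 0.62, SE 0.09, adjusted p = 2.5e-05). Myod1, which commits cells to the myoblast state, fell 2.08-fold, from 1493, 1862 and 1894 CPM to 917, 901 and 703 CPM. Myf5, its relative, was not called, at 198, 161 and 189 CPM against 155, 172 and 158 CPM (-0.18, SE 0.08). Leaving out DMSO library 2 or AMP library 2 brought the Myf5 fall past the threshold, at -0.26 and -0.22, while with library totals its value was 0.09.

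Des, the muscle filament desmin, fell 3.96-fold, and the surface proteins Itga7 and Vcam1 fell by 1.14 and 1.00. Fgfr4 and Notch3 fell by 1.94 and 1.70. In the Notch list, the pathway that keeps satellite cells at rest, 3 of 12 rose and 5 fell, against 33.7% and 31.8% of all genes. With library totals 6 rose and 5 fell. Among the 8 of at least 10 CPM, 5 rose and 2 fell, where 3035 rose and 2831 fell of all 8581 such genes. The balance of rises and falls in this list thus changed with the scaling and the filter. Maml1, a coactivator of the pathway, rose 2.31-fold, from 12.2, 10.6 and 9.24 CPM to 30.1, 21.6 and 22.6 CPM, and Hes1, a target repressor, rose 0.66 (SE 0.13). Hey1, another target repressor, fell 2.28-fold from 10.6, 11.1 and 13.5 CPM to 5.6, 4.07 and 5.76 CPM. Myog, which starts differentiation, was at 3, 18.6 and 9.52 CPM with DMSO and 2.31, 13.1 and 6.07 CPM with AMP and was not called (SE 0.66). Library 2 was the highest and library 1 the lowest in both groups. Of 20 differentiation genes 3 rose, 4 fell and 13 were not called (3 rose and 6 fell with a term for the library number in the fit). Chrna1, the acetylcholine receptor subunit, was among those that fell, 4.67-fold, and Myf6 rose 1.51 on the log2 scale.

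Matrix and contractile genes moved in both directions. Of 30 matrix genes 8 rose and 15 fell, and in the TGF-beta and YAP list of 18 genes 6 rose and 11 fell; with library totals these became 9 to 9 and 7 to 5. Both lists' shares of rises were at or below the 33.7% of all genes, and their shares of falls were above the 31.8% of all genes. Col3a1, a fibrillar collagen, fell from 325, 493 and 425 CPM to 69.1, 144 and 75 CPM (log2 fold change -2.11, SE 0.26). Col7a1 had 1 count in all DMSO libraries together and is given no fold.

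AMP was then set directly against adenosine, at 0.25 mM and 0.1 mM, so agent and dose cannot be told apart. Of 13063 genes, 590 were higher (4.52%) and 261 lower (2%) with AMP, 6.51% in all, and 98 and 22 of them differed by more than 2-fold. The counts leaned on single libraries: 362 and 157 without AMP library 2, 397 and 158 without AMP library 1, and 304 and 104 without adenosine library 3. Ccnb1 with adenosine was at 4.53, 13.5 and 5.84 CPM, beside 2.58, 12.5 and 6.3 CPM with AMP, and was not called between the agents (log2 difference -0.17, SE 0.44).

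Cyp1a1, the classic target of the aryl hydrocarbon receptor, gave the largest difference. It was at 2.22, 3.39 and 2.84 CPM with AMP, 22.7, 20.6 and 27.9 CPM with adenosine and 0.868, 1.01 and 0.366 CPM with DMSO, so AMP was 8.38-fold below adenosine (log2 difference -3.07, SE 0.23, adjusted p = 5.8e-06). Between AMP and DMSO, 5 of 8 genes of that receptor's list rose and 1, Tiparp, fell. Nqo1, a target of the same receptor and of NRF2, was 1.99-fold lower with AMP than with adenosine. Kctd12, Tent5c, Hspa2 and Ccno were lower by 1.22, 1.19, 1.08 and 1.02 and all 4 lay above DMSO in both groups. Of the genes named earlier as rising with AMP, Arg2, Enpp1, Meg3 and Txnip were also called lower than with adenosine. They were lower by 0.71, 0.68, 0.61 and 0.39 on the log2 scale, so adenosine had raised them more. For Arg2 the libraries of the 2 agents overlapped.

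The 6 highest differences of AMP over adenosine were of Acta2, Ablim1, Bmper, Gm45837, Cavin2 and Lpp. Acta2, smooth muscle actin, was at 64.1, 166 and 66.6 CPM with AMP, 20.8, 42.4 and 19.2 CPM with adenosine and 261, 477 and 319.5 CPM with DMSO (log2 difference 1.84, SE 0.35, adjusted p = 0.0044). Ablim1, an actin-binding protein, was not called between AMP and DMSO (log2 fold change -0.03, SE 0.19) and was 3.31-fold higher than with adenosine. Bmper, Gm45837, Cavin2 and Lpp differed by 1.55 to 1.71. Ccnd1 was 1.97-fold and Myf5 1.65-fold higher with AMP than with adenosine. P2ry2 was 2.71-fold higher, Slc29a2 1.67-fold and Ahcy 1.33-fold; the Ahcy call was lost in 7 of the alternatives, among them without AMP library 1 or 2 and without adenosine library 1 or 3.

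**Figure D4:**
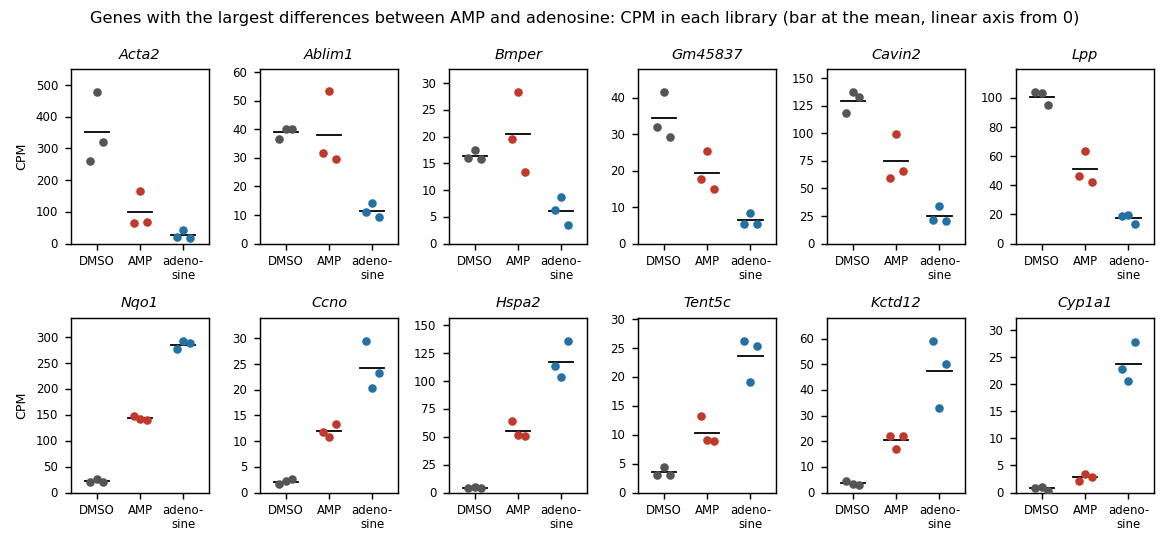
CPM in each DMSO (grey), AMP (red) and adenosine (blue) library for the 12 genes with the largest differences between AMP and adenosine, with a bar at the mean and axes linear from 0. The upper row is higher with AMP than with adenosine and the lower row is lower, with Cyp1a1 near 3 CPM with AMP and above 20 CPM with adenosine.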

How the data were processed

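RNA of 9 batch 2 libraries was reverse transcribed by Smart-seq2 and fragmented with Tn5, per the labels' protocols; the kit named marks no strand, so antisense overlaps cannot be told apart. Trim Galore, STAR, featureCounts, Subread, DESeq2 and the build mm10 are named in the submitters' processing notes, without versions. The authors deposited raw counts per gene and FPKM values (the latter used for an alternative only). The 43 of 13106 lines that name no gene (0.0589% of counts) were left out; the smallest total of a line over the 9 libraries was 101, so genes of lower totals are not analysed here. Symbols were matched to GENCODE M21 (13012 of 13063 genes).

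Counts of 9 libraries in 3 groups were fitted with edgeR 4.0.16 (TMM, filterByExpr, glmQLFit, glmQLFTest; R 4.3.3) without a replicate term; levels are CPM of the TMM-scaled totals, a scale chosen after seeing the data (on plain totals 70.7% of genes do not overlap, and Rgcc replaces Nqo1 among the 6 lowest of AMP over adenosine); SE is the log2 fold change over the root of F. Lists were described by counts and medians. Genes named were the 12 highest and lowest called fold changes at a mean of at least 10 CPM without overlap, up to 4 largest per list, all AMP-handling genes, 18 fixed genes, and 6 in each direction for AMP over adenosine. Members and lists were chosen with earlier results of these data known. Same-numbered DMSO and AMP libraries correlated in their deviations at 0.02, 0.21 and 0.03, and different-numbered ones at -0.14 to 0.11. On the third principal component the libraries ran 1, 3, 2 from highest to lowest in all 3 groups. Summed mitosis mRNA ran 1, 3, 2 from lowest to highest in all 3 groups. Deviations of AMP and adenosine libraries were not compared in this way. The labels do not pair the libraries, so the numbers were not taken as pairs. An effect of the number shared by the groups was not tested. The fit was run on simulated data with 200 changed genes, as many raised as lowered. Far fewer genes changed there than were called in the data, so that run cannot judge the choice of scaling. Alternatives used DESeq2 1.42.0, limma 3.58.1 on log2 FPKM (pseudocounts 1 and 0.1), other scalings, filters and left-out libraries. Promoters are RefSeq's.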

Additional observations from a re-analysis of the deposited data

How the results depend on the processing

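Calls of AMP over DMSO stayed within 1.5 times the reported 4405 higher and 4159 lower under every alternative run except library totals, which gave 2605 lower; leaving out 1 library gave 3989 to 4289 higher and 3797 to 4021 lower. AMP over adenosine, with 590 higher and 261 lower, moved more: limma on log2(FPKM + 1) and log2(FPKM + 0.1) gave 376 and 363 higher, and leaving out 1 library gave 304 to 710 higher and 104 to 281 lower. With the replicate block the counts were 4497 and 4245 for AMP over DMSO and 779 and 380 for AMP over adenosine; the numbers are not shown to pair the libraries. Leaving out rows like ribosomal RNA, an alternative chosen after seeing the data, gave 4468 higher and 4081 lower. Of the values checked for named genes under alternatives, 37 lost their call, 4 gained one and no called value changed sign. Uncalled values that changed sign included Myf5 with library totals and Myog without DMSO library 2 (0.22 against -0.50). Another was Adk over adenosine without AMP library 2 or adenosine library 1. Not every gene named in the text was checked in this way, nor in both comparisons. Counts under about 3 per library, as for Isg15 or Ampd1 with DMSO, limit fold changes.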

Other observations

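The table held 18 genes that had no count in any DMSO library and were counted in every AMP library. Genes of low total over all libraries of the batch are missing from it, and most of those libraries were treated. A gene without DMSO counts could thus be present only with enough counts in treated libraries. Counts of such genes with AMP are therefore partly set by that limit. Genes without counts in the AMP libraries are not given for comparison. Ppp1r3c, a glycogen-targeting subunit of protein phosphatase 1, had 54, 28 and 40 counts with AMP, at least 12.6-fold higher against a floor of 3 counts per library. Abcg1, a sterol exporter, had 8, 9 and 16 counts, at least 3.32-fold higher. These 2 were chosen after their values were seen.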
